A study of Drosophila melanogaster with 2 samples.

Results

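The genes described here are the cuticle protein genes of Drosophila melanogaster named Cpr, followed by a digit, or Twdl. They were found by symbol among the protein-coding genes of the dm6 annotation and number 95 of 13945, namely 70 Cpr genes and 25 Twdl (Tweedle) genes. ChIP-seq mapped binding of Hr51, a nuclear receptor, in embryos of the transgenic strain Dhr51-GFP, taken whole at 14 to 16 h with both sexes pooled. This line stably carries Hr51 with GFP at its C terminus, and chromatin was pulled down with an antibody against GFP. All data came from this 1 line and this 1 age, as 2 samples given as biological replicates 1 and 3. The sources used here do not give what drives the transgene, and whole embryos mix epidermis with all other tissues.

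The insect cuticle is an extracellular coat of chitin fibres and proteins that the epidermis and other ectodermal tissues, such as the tracheae, lay down. The larval cuticle is made late in embryonic development. Most Cpr proteins carry the Rebers-Riddiford consensus, a chitin-binding stretch shared by many insect cuticle proteins, whereas Tweedle proteins form a separate family and TwdlD mutants have altered body shape. Genes of both families often stand in tandem arrays and are switched on in pulses around each moult, under ecdysone and the nuclear receptors it induces. Hr51, also called unfulfilled, is best known for its roles in neurons of the mushroom body and the clock.

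The deposited reproducible list, kept by an irreproducible discovery rate procedure, held 7229 peaks, and the pooled, replicate 1 and replicate 3 lists held 30000 each. The signal is the authors' own score for a peak and was used only within a list. It ranged from 135 to 5850 in the reproducible list, with a median of 270. It started at 27.0 in the pooled list, 16.6 in replicate 1 and 15.6 in replicate 3. Read depth is unknown. Every position below is on dm6 and counted from 1.

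A promoter peak was a summit, the position of highest signal in a peak, within 1 kb of a transcription start site (TSS). Cuticle protein genes had few of them in the reproducible list. They were found at 6 of the 95 genes, or 6.32% (95% Wilson interval 2.93 to 13.1%), while the share over all 13945 protein-coding genes was 23.3%. All 6 were Cpr genes, which is 8.57% of that family (3.99 to 17.5%). None of the 25 Twdl genes had one (interval 0 to 13.3%). In whole embryos, binding in fewer cells and weaker binding per cell cannot be told apart. The 6 genes were Cpr65Av, Cpr65Ay, Cpr65Ea, Cpr67Fa1, Cpr67Fb and Cpr73D, and they all lie on chromosome arm 3L.

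Windows of 50 bases on either side of the strongest summit at each of these genes show the DNA under the peaks. They are read 5′ to 3′ on the strand of the named gene, from the RefSeq genome sequence of the same build. Capitals mark any match, on either strand, to the 6 motifs named after the sequences. At Cpr65Ea a match on each strand overlaps, so the capitals run on.
Cpr65Av, chr3L:6140338-6140438, minus strand: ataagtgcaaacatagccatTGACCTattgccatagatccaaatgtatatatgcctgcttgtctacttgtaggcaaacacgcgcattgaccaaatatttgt
Cpr65Ay, chr3L:6157721-6157821, minus strand: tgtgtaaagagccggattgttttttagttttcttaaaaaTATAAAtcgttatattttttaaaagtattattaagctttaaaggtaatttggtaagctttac
Cpr65Ea, chr3L:7086822-7086922, minus strand: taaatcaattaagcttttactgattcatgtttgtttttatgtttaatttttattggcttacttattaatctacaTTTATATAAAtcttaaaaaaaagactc
Cpr67Fa1, chr3L:10889453-10889553, plus strand: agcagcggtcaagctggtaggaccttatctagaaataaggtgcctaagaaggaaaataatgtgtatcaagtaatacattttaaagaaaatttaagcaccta
Cpr67Fb, chr3L:10893535-10893635, plus strand: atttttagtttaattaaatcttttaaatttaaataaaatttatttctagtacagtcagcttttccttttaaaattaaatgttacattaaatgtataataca
Cpr73D, chr3L:16956862-16956962, minus strand: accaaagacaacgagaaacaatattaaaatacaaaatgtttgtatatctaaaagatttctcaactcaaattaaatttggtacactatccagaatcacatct

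With the windows at the weaker second summits of Cpr65Ea and Cpr67Fa1, the 8 member windows had a median GC content of 24.8%, with a range from 14.9 to 42.6%, and the median over all 7229 reproducible windows was 29.7%. AGGTCA, the half-site bound by many nuclear receptors, was found in 1 of the 8, at Cpr65Av, and in 2.14% of all windows. AAGTCA, a half-site bound by the related receptor Tailless, was in 0 of the 8 and 5.92% of all windows. TATAAA was in 3 of the 8 and 26.7% of all windows. CAAGGTCA, the longer site of FTZ-F1, was in 0 of the 8 and 0.111% of all. GAGAG, bound by the GAGA factor, was in 0 of the 8 and 8.30% of all. ACCGGTT, bound by the epidermal factor Grainyhead, was in 0 of the 8 and 0.180% of all. These are matches of letters and not tested sites.

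The strongest peak at a cuticle protein gene was beside Cpr65Ay. It ran from 6157579 to 6157983 on 3L, with a signal of 673 and rank 1147 of 7229. Its signal was 346 in replicate 1 and 331 in replicate 3, with ranks 917 and 1421 of 30000. The summit was intergenic and lay 859 bp downstream of the TSS of Cpr65Ay, past the end of this short gene. It was closer to CG13297, with the summit at -394 bp from that gene's TSS (negative meaning upstream), so it cannot be given to the cuticle gene alone.

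A similar peak lay beside Cpr73D (3L, 16956762 to 16957090, signal 628, rank 1271). Its signal was 254 in replicate 1 (rank 1493) and 377 in replicate 3 (rank 1177). The summit fell in an intron of both Cpr73D and Ogdh, a gene of the citric acid cycle whose annotation overlaps Cpr73D. It was 777 bp downstream of a Cpr73D TSS and at -527 bp from an Ogdh TSS. A second reproducible peak of signal 209 (16955200 to 16955609) had its summit at -95 bp from an Ogdh TSS and 2284 bp downstream of the nearest Cpr73D TSS.

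The other 4 genes had summits upstream of their own TSS, with no other protein-coding TSS closer. Cpr67Fb had a peak from 10893413 to 10893805 with a signal of 608 (rank 1319) and its summit at -588 bp. The signal there was 319 in replicate 1 and 291 in replicate 3, with ranks 1046 and 1693. Both replicates held this peak among their higher ones.

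The neighbouring gene Cpr67Fa1 had a pair of peaks. The stronger (10889396 to 10889645) had a signal of 384 and its summit at -487 bp, with 173 in replicate 1 (rank 2486) and 207 in replicate 3 (rank 2602). The weaker (10889498 to 10889907) had a signal of 176 and its summit at -287 bp, with 93.5 in replicate 1 (rank 5402) and 43.5 in replicate 3 (rank 11858). The weaker summit was thus far lower in the replicate 3 list than in the replicate 1 list. Cpr67Fa2, which stands between these genes, had no promoter peak in any list.

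Cpr65Ea also had a pair. The peak from 7086694 to 7087089 had a signal of 496 (rank 1749) and its summit at -264 bp, the closest of all to a member TSS. Its signal was 227 in replicate 1 (rank 1743) and 268 in replicate 3 (rank 1887). A weaker peak of signal 173 (7087369 to 7087778) had its summit at -966 bp, with rank 7800 in replicate 1 and 5545 in replicate 3. Cpr65Av had the weakest promoter peak of the 6 genes (6140309 to 6140487), with a signal of 237, a summit at -414 bp and ranks of 4802 and 3842. The strongest summits of the 6 genes ranked no lower than 4802 of 30000 in replicate 1 and 3842 in replicate 3.

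None of these summits sat at the core promoter. The strongest summit of each of the 6 genes lay between 264 and 859 bp from the TSS, with a median distance of 538 bp. Over the 3241 other genes with a promoter peak the median was 213 bp, and 1849 of them (57.1%) had the summit within 250 bp. In the reproducible list none of the 6 cuticle genes did, while the strongest Cpr65Ea summit in replicate 3 lay at -237 bp. Distances were to the nearest TSS, and 91.6% of cuticle genes had 1 TSS against 73.4% of other genes. The signals of the 6 genes lay within the range of other genes. The median of the 6 was 552, with a range from 237 to 673, and the strongest promoter peaks of other genes had a median of 388 and reached 5498. When a summit was given only to the protein-coding gene with the nearest TSS, 4 cuticle genes kept a promoter peak. The share of all genes with one under this rule was 18.0%.

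Each replicate was also limited to its highest 7229 peaks. In replicate 1, 7 of the 95 genes had a promoter peak, and 24.0% of all protein-coding genes did. In replicate 3 the count was also 7, and the share of all genes was 24.9%. The 6 genes of the reproducible list were present in both. The seventh differed. It was Cpr65Aw in replicate 1 (signal 79.5, rank 6533) and Cpr49Ae in replicate 3 (signal 80.6, rank 6856). Cpr49Ae had no promoter peak in the replicate 1 or pooled list.

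**Figure D1:**
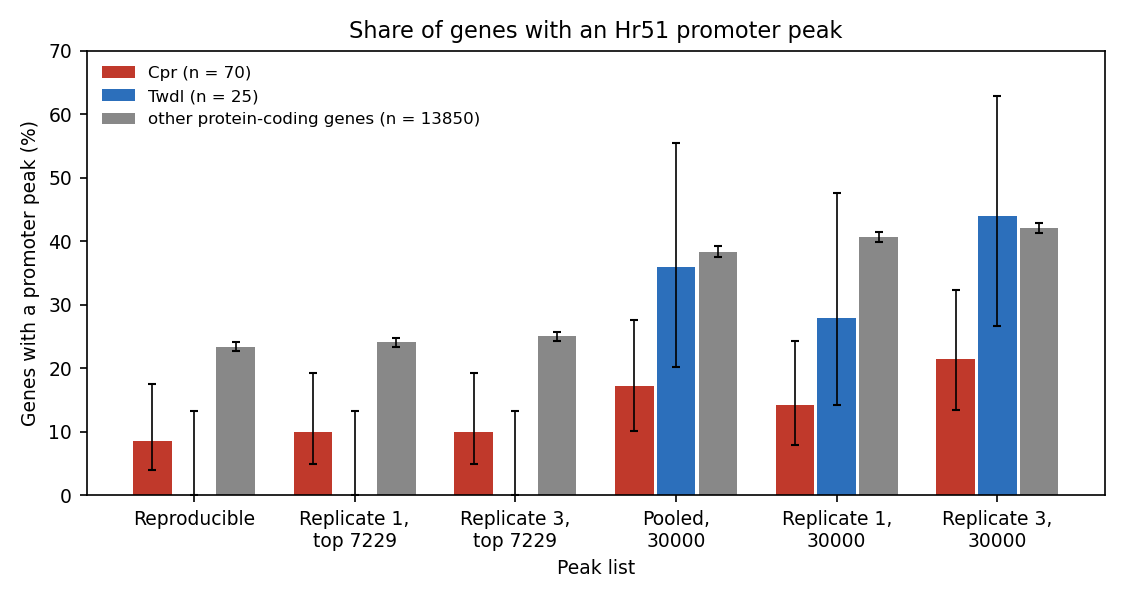
The plot gives the share of Cpr genes, Twdl genes and other protein-coding genes with a promoter peak in each peak list, in percent, with 95% Wilson intervals as bars. Both families lie below other genes in the 3 lists of 7229 peaks, where Twdl genes are at 0, and Twdl genes lie at 28.0 to 44.0% in the longer lists.

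The longer lists, which reach down to weak peaks, added cuticle genes of both families. The pooled list had a promoter peak at 21 of the 95 genes, and 38.3% of all protein-coding genes had one. Replicate 1 had 17, with 40.5% of all genes, and replicate 3 had 26, with 42.0% of all genes. By family, the pooled list held 12 of 70 Cpr genes (17.1%, interval 10.1 to 27.6%) and 9 of 25 Twdl genes (36.0%, 20.2 to 55.5%). In replicate 1 the counts were 10 and 7, and in replicate 3 they were 15 and 11. The Twdl intervals include the share of all genes in each of these lists, and the Cpr intervals lie below it. They treat genes as independent, yet 7 of the 9 Twdl genes in the pooled list are neighbours on 3R, between TwdlM and TwdlD. The families were not compared by a test.

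The Twdl peaks were weak. The strongest promoter peak of the 9 genes in the pooled list had signals from 27.5 to 51.9, with a median of 35.9. Their ranks ran from 17389 to 29584 of 30000. All were below the lowest signal of the reproducible list, which largely follows from the Twdl genes having no promoter peak in it. Promoter peaks of other genes in the pooled list had a median signal of 192, counting genes that also have a reproducible one. In replicate 1 the 7 Twdl genes had a median of 20.2, and in replicate 3 the 11 had a median of 21.2, with medians of 91.5 and 104 for other genes. The medians of the Twdl signals lay below the medians of the whole lists, which were 60.9 in the pooled list, 36.8 in replicate 1 and 33.5 in replicate 3. TwdlG and TwdlN in replicate 1 (40.4 and 37.2) were above that list's median.

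Among genes without a reproducible summit in the gene or within 1 kb, 7 had a promoter peak in the pooled and in both replicate lists. They were TwdlG, TwdlF, TwdlS, TwdlH and TwdlN on 3R, and Cpr62Ba and Cpr65Ec on 3L. Cpr62Ba had the highest pooled signal of them, 54.4, with 25.0 in replicate 1 and 27.2 in replicate 3, and a summit at -850 bp. TwdlG had 51.9 in the pooled list, with a summit at 1 bp from the TSS, and 40.4 in replicate 1. In replicate 3 its strongest promoter peak had a signal of 19.3 and lay at -280 bp. TwdlF had 51.6, with a summit at -53 bp, and 20.2 and 27.7 in the replicates. The pooled summits of TwdlG and TwdlF were thus nearer to the TSS than those of the 6 Cpr genes above.

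The others were weaker still. TwdlS had a pooled signal of 42.6 at -459 bp, with 18.1 and 25.0 in replicates 1 and 3. Cpr65Ec had 40.6 at -850 bp, with 37.5 and 21.1 in the replicates. TwdlH had 35.9 at 703 bp, a peak it shared with TwdlR, whose TSS was nearer. Its replicate 1 peak (22.1) was another one, at -808 bp. TwdlN had 32.6 at -703 bp, with 37.2 in replicate 1 and 19.0 for its strongest promoter peak in replicate 3. No gene of this group ranked above 13540 in either replicate.

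**Figure D2:**
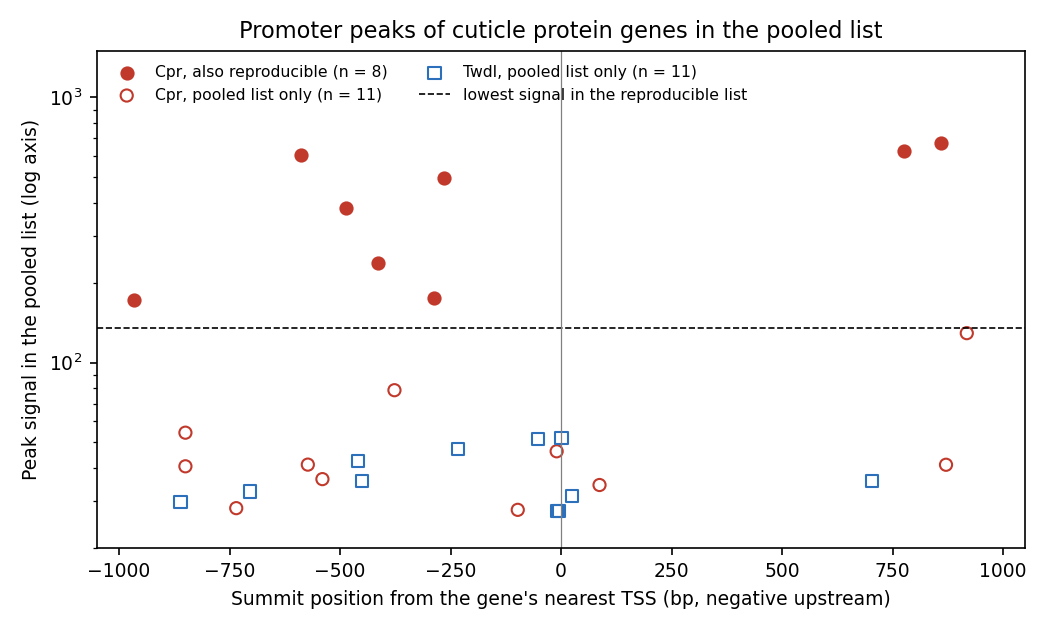
Each point is a promoter peak of a cuticle protein gene in the pooled list, placed by its summit's distance from the TSS in bp (negative upstream) and its signal on a log axis. The 8 filled Cpr points above the dashed line are also in the reproducible list and lie at least 264 bp from the TSS, and all Twdl points lie below the line.

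Of the remaining genes, 3 had a reproducible summit only outside the promoter window. When the whole gene and its 1 kb flanks were searched, 9 of the 95 held a reproducible summit, all of them Cpr genes, and 30.4% of all protein-coding genes did. The 3 added genes were Cpr65Aw, Cpr65Eb and Cpr76Ba. At Cpr65Aw the summit lay 1120 bp downstream of the TSS in a peak of signal 253 (3L, 6141088 to 6141497), with 143 in replicate 1 and 106 in replicate 3. This gene also had a pooled promoter peak of signal 129 at 918 bp, just under the lowest reproducible signal. At Cpr65Eb the summits were those upstream of Cpr65Ea. At Cpr76Ba the summit lay 1602 bp from the TSS in a peak of signal 414 (3L, 19516602 to 19516853). That peak had a signal of 288 and rank 1715 in replicate 3 but overlapped no replicate 1 peak, so it rests on replicate 3 and the pooled list. A further 12 genes had a promoter peak in the pooled list, in 1 replicate list or in both of these. TwdlP had one in both replicates but not in the pooled list. The remaining 66 genes, 53 Cpr and 13 Twdl, had none in any list. The groups set apart by combining the lists were not counted over all protein-coding genes, so no share stands beside them. List by list, 38.3% of all genes had a promoter peak in the pooled list, 40.5% in replicate 1 and 42.0% in replicate 3.

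The median distance from a gene's TSS to the nearest reproducible summit was 12992 bp over the 95 genes, and 6319 bp over other protein-coding genes. The nearest summit lay more than 10 kb away for 54 cuticle genes (56.8%) and for 37.9% of other genes. For the Twdl genes the distance ran from 3180 to 23345 bp, with a median of 11623 bp. Each distance was taken from the TSS of the gene nearest to a summit. A single TSS was found in 91.6% of cuticle genes and 73.4% of other genes, and the distances were not matched for this. Neighbouring genes can share the same nearest summit, so the distances are not independent.

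Most members stand in gene clusters. With neighbouring starts at most 20 kb apart, 64 of the 95 genes fell into 13 clusters of at least 3, of which 10 were Cpr and 3 Twdl clusters. The 31 dispersed genes had 1 promoter peak, that of Cpr73D (3.23%). The clustered genes had 5 (7.81%, interval 3.38 to 17.0%), and these fell in 3 clusters of 3L, Cpr65Au to Cpr65Az with 2 of 7 genes, Cpr67Fa1 to Cpr67Fb with 2 of 3 and Cpr65Ea to Cpr65Ec with 1 of 3. The cluster spans with 1 kb on each side held 13 reproducible summits, or 5.43 per 100 kb. The density over all arms was 5.40 per 100 kb, close to that of the spans. The spans also overlap 27 other protein-coding genes, of which 3 (11.1%) had a reproducible promoter peak. Of the 13 summits, 9 lay in the 3 clusters above with 3 summits each, and 3 more lay in the Cpr47Ea to Cpr47Eg cluster on 2R, outside the promoters of its members. There TpnC47D, which encodes a troponin C of muscle, had a promoter peak.

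The Cpr49Aa to Cpr49Ah cluster on 2R has 8 genes over 38.5 kb, and the nearest reproducible summit lay between 21994 and 48911 bp from the TSS of each. Its sole promoter peak was that of Cpr49Ae in replicate 3. Of the 13 clusters, 5 had no member with a promoter peak in any list. Among these, Cpr64Aa to Cpr64Ad, Cpr72Ea to Cpr72Ec and Cpr78Ca to Cpr78Cc on 3L had no summit within their spans and 1 kb flanks in any of the 4 lists. Cpr76Ba to Cpr76Bd on 3L held the 1 reproducible summit described above, outside the promoters, and TwdlX to Twdlalpha on X had no reproducible summit. The Twdl cluster on 3R from TwdlM to TwdlD has 12 genes over 21.9 kb. It held 0 reproducible summits, 8 pooled summits, 5 in replicate 1 and 14 in replicate 3, with promoter peaks at 7, 5 and 9 of its genes. Of the 2 replicates, only replicate 3 had a promoter peak at TwdlM, TwdlB, TwdlL, TwdlJ and TwdlR, and only replicate 1 at TwdlD.

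**Figure D3:**
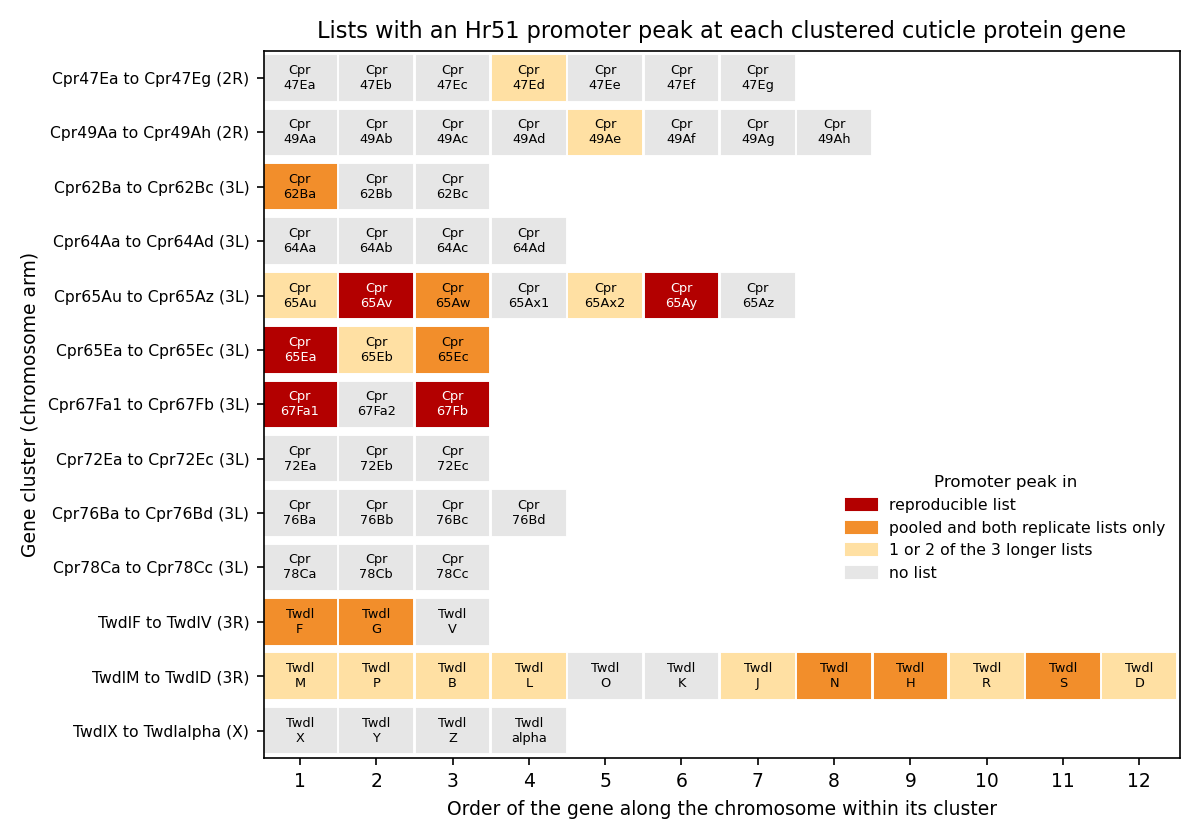
Each row is a gene cluster and each box a member in chromosome order, coloured by the lists in which it had a promoter peak. Reproducible promoter peaks (dark red, 5 genes) fall in 3 clusters of 3L, and the 12-gene Twdl row on 3R is coloured only by the longer lists.

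The arms did not carry the members evenly. Arm 3L held 35 of the 95 genes, all Cpr, and the 6 with a promoter peak were 17.1% of these, while 26.4% of all protein-coding genes on 3L had one. The other members were spread as 24 on 3R, 22 on 2R, 8 on X and 6 on 2L, and none of these had a reproducible promoter peak.

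Cuticle protein genes are short, with few exons. Their median length was 1088 bp, with 2 exons, and that of other protein-coding genes was 2177 bp, with 3 exons. The median coding length was 179.5 codons for Cpr genes and 274 for Twdl genes, stop codons not counted. A single TSS and a length under 5 kb were found in 83 of the 95 genes and in 61.4% of other genes. Among all protein-coding genes of that form 15.0% had a promoter peak, and among the 83 cuticle genes 5 did (6.02%). The 2 shares are nearer to each other than the shares without this restriction, and the part of gene form was not tested further.

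Many of these genes have a TATA box, the element that places the transcription machinery, close upstream of the TSS. Its core, TATAAA, was found on the gene's strand from 45 to 16 bases upstream of the first TSS in 39 of 70 Cpr genes and 15 of 25 Twdl genes. That is 56.8% of the 95, and the share in other protein-coding genes was 8.42%. The 60 bases upstream of the TSS are shown for 6 members with the element, on the gene's strand and ending at the base before the TSS, with TATAAA in capitals. Cpr65Av, Cpr65Ea and Cpr67Fa1 had a reproducible promoter peak, while Cpr65Ec, TwdlF and TwdlN had peaks in the pooled and replicate lists.
Cpr65Av, chr3L:6139975-6140034, minus strand: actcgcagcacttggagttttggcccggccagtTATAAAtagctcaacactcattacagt
Cpr65Ea, chr3L:7086609-7086668, minus strand: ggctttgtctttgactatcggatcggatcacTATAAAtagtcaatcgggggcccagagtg
Cpr67Fa1, chr3L:10889930-10889989, plus strand: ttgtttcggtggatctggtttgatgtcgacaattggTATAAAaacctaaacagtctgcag
Cpr65Ec, chr3L:7093144-7093203, plus strand: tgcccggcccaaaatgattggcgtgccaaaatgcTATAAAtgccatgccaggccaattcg
TwdlF, chr3R:4246960-4247019, plus strand: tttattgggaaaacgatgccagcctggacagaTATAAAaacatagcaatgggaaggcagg
TwdlN, chr3R:26631809-26631868, plus strand: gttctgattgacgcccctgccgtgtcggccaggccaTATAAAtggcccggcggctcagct

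In these 6 promoters the first T of the element lay between 24 and 29 bases upstream of the TSS. Of all 1220 protein-coding genes with the element, 10.1% had a reproducible promoter peak. Outside the cuticle genes the share was 10.3% with the element and 24.6% without it. This grouping was chosen after the values were seen. Among the cuticle genes, 3 of 54 with the element had a promoter peak (5.56%) and 3 of 41 without it (7.32%). Cpr67Fb, counted as without it, had TATAAA with its first base 58 bases upstream, outside the window. The part of the TATA box in the low count was not tested.

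**Figure D4:**
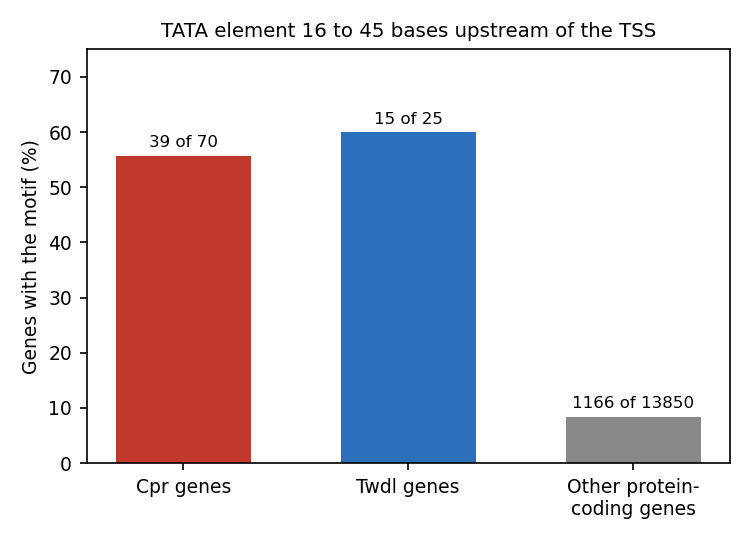
Bars give the percent of genes with the TATA element in the window upstream of the first TSS, with counts above the bars. Cpr genes are at 55.7%, Twdl genes have it at 15 of 25, and other protein-coding genes are at 8.42%.

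From 250 bases upstream to 50 downstream of the first TSS, AAGTCA was found on either strand in 11 of 25 Twdl genes, 14 of 70 Cpr genes and 16.2% of other genes. AGGTCA was found in 4 Twdl genes, 3 Cpr genes and 5.88% of other genes. GAGAG was found in 30 of the 95 cuticle genes (31.6%) and 29.8% of other genes. ACCGGTT was in 3 of the 95 and 1.86% of other genes. CAAGGTCA was in none of the 95 and 0.498% of other genes.

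Some members have sequence near the TSS that occurs more than once on the chromosome arms, where reads can be hard to place. In the 1 kb on each side of the first TSS, 32-base words found more than once on the chromosome arms were counted. Copies could lie in the same window or elsewhere, and words with an unknown base were counted too. Such words made up more than 10% for 7 of the 95 genes (7.37%) and for 4.92% of other genes. The 7 genes were Cpr65Ax1 and Cpr65Ax2, at 63.7% and 62.8%, and TwdlL, TwdlB, TwdlK, TwdlJ and TwdlM, at 10.1 to 21.8%. Over all 95 genes the median was 0. The part of repeated sequence in the counts of promoter peaks was not tested.

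Other structural genes of the cuticle also had few promoter peaks. Of 30 further cuticle protein genes (Lcp, Ccp84A, Edg and others), 1 had a reproducible promoter peak (3.33%), against the 23.3% of all genes. This was Edg91, with a signal of 194 and its summit at -524 bp. Of 19 genes for chitin-binding and apical matrix proteins, 1 had one (5.26%), which was qsm, a gene for a zona pellucida domain protein (signal 187, summit at -434 bp).

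Against the same 23.3% of all genes, the shares were near it for genes of chitin synthesis, assembly and turnover and for tanning genes. The share was higher for regulators of cuticle genes. Of 22 genes of chitin synthesis, assembly and turnover, 6 had one (27.3%). They were led by Cht7, a chitinase family gene (signal 1136, summit at -186 bp), mmy, whose enzyme makes the sugar nucleotide for chitin (604), Idgf2 (531) and Idgf6 (414), both for chitinase-like growth factors. The summit at Idgf2 was nearer to a TSS of CG5888. Of 10 tanning genes 3 had one (30.0%), svr (768), Ddc (270) and Pu (232), the latter with a TSS of CG4286 nearer to the summit. Of 18 transcription factor genes known to regulate cuticle genes 9 had one (50%), led by Eip75B (1540), ftz-f1 (474), grh (427) and Hr38 (340). The lists were not matched to other genes in length or number of TSSs. Among the 8591 protein-coding genes with 1 TSS and under 5 kb, 1292 had a promoter peak (15.0%), of the 3247 with one among all 13945. Genes that are longer or have more TSSs thus had a share above 23.3%. No share of genes of like form was taken for the 18 regulator genes. The differences between these lists were not tested.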

How the data were processed

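ChIP-seq of Hr51-eGFP was run on 2 samples of whole embryos. The authors deposited a peak list for each sample, a pooled list and a list kept by an irreproducible discovery rate procedure. Per the file headers these came from both alignments and 1 control alignment, on dm6. No source used here names the aligner or the peak caller. The signal per peak and the −log10 q-value per peak are the authors' deposited values. The scale of the signal was not given, and the q-value was not used. Depth is unknown.

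Members were found by symbol in the Ensembl release 115 annotation. Its positions for 95 of 95 members equalled those of the RefSeq annotation of the same assembly. A promoter peak is a summit within 1000 bp of any transcription start site of a gene. Gene clusters are runs of 3 or more members whose neighbouring starts lie at most 20 kb apart. With a single group, no test between conditions and no set test was made. Shares carry 95% Wilson intervals, which cover counting error over genes only, and neighbouring genes can share a peak. Protein sequences were not used here. The assignment was checked with 200 summits placed at known genes, and 200 were recovered. Alternatives changed the peak list, the window and the assignment rule. Named genes include all members with a reproducible summit in the gene or within 1 kb, and the members with a promoter peak in the pooled and both replicate lists. Further members are named where a replicate list, a cluster or repeated sequence is described. In each comparison list, up to 4 genes of highest signal are named. Members and lists were chosen with earlier results of these data known. Motif windows were read from the RefSeq genome with Python 3.11.15, and intervals were computed with SciPy 1.17.1.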

Additional observations from a re-analysis of the deposited data

How the results depend on the processing

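With the reproducible list, 6 members, 6 Cpr genes, 0 Twdl genes and 5 clustered members had a promoter peak. Leaving out either replicate, with as many of the highest peaks of the other, gave 7, 7, 0 and 6. The longer lists moved the counts, while the share of all genes rose as well. For members they were 21 (pooled), 17 (replicate 1) and 26 (replicate 3), for Cpr genes 12, 10 and 15, for Twdl genes 9, 7 and 11, and for clustered members 19, 15 and 24. Summits within 500 bp of a TSS left 3 members, 3 Cpr genes and 3 clustered members, with 19.6% of all protein-coding genes. Within 2000 bp there were 12 members, 12 Cpr genes and 10 clustered members, with 29.4% of all genes. Gene bodies with 1 kb on each side gave 8 clustered members, with 30.4% of all genes. The stronger 3614 peaks gave 5 members, with 15.4% of all genes. Nearest-TSS assignment gave 4 members, with 18.0% of all genes, and overlap of the peak interval gave 7, with 24.3%. Cluster gaps of 10 or 50 kb gave 5 clustered members. The Twdl count stayed at 0 in every alternative that used reproducible or highest replicate peaks. In every alternative the share of members was below the share of all protein-coding genes. Depth is unknown, so a missing peak does not show that binding was absent. No paired analysis was possible because the study has 1 group.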
